A study of Mus musculus with 4 samples.

Results

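The 9 genes described here are interferon-stimulated genes and genes of MHC class I antigen presentation, followed among the 32285 genes of 4 spatial transcriptomic count tables from mouse lung. They were chosen by name. Of these, 6 are interferon-stimulated genes (Isg15, Ifit1, Ifit3, Ifi27, Irf7 and Bst2) and 3 encode the classical MHC class I molecule (the light chain B2m and the heavy chains H2-K1 and H2-D1). All 9 were found in each table. Cryosections of upper pulmonary branches from C57BL/6J mice were laid over Visium arrays, whose barcoded spots each take up the polyA RNA of several neighbouring cells. Vaped (V) mice had breathed e-vapor of a Peach Ice liquid of 70% vegetable glycerin and 30% propylene glycol from JUUL pens in whole body chambers, for 4 h a day on 5 days a week over 9 weeks, from an age of 6 to 8 weeks. Non-Vaped (NV) mice were the controls, and each group held 1 male and 1 female, so that mouse and sex cannot be told apart within a group. The question put to these genes is whether their levels differed between V and NV lungs, between regions of the lung and from spot to spot.

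Interferons are secreted proteins that signal through receptors on nearly every cell to transcription factors such as IRF9, which bind a DNA element in the promoters of interferon-stimulated genes. Type I and type III interferons act mainly through that element and induce antiviral effectors, whereas interferon gamma also induces guanylate-binding proteins, immunity-related GTPases and the antigen presentation machinery. MHC class I molecules display peptides from inside the cell to CD8 T cells, are carried by most nucleated cells without any stimulus, and are raised further by interferons. In the lung, low interferon-stimulated gene expression is found in healthy tissue, and airway epithelium, macrophages and endothelium respond strongly to viral infection.

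The 4 sections held 473 to 2053 spots and 6957392 to 34308556 UMIs (unique molecular identifiers, 1 per captured transcript), with a median of 6259 to 11355 UMIs per spot. Any pair of sections shared 277 to 1167 spot barcodes, which are positions on the slide and not cells. Spots were split by 6 markers of the alveolar tissue that are no members: a spot in which these reached at least 50% of their level over all spots was called parenchyma and the others upper airway. The V male section held 1 upper airway spot among 1565, although its label names upper pulmonary branches, so comparisons between regions rest on the other 3 sections. Cardiac muscle markers summed to 6573 and 7015 CPM (UMIs out of 1000000 UMIs) in the NV sections, to 18.2 CPM in the V male and to 3673 CPM in the V female, so that the sections differed in the tissues they held.

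Promoter stretches are shown for the 5 members whose promoter held a pair of GAAA half-sites 2 bases apart, the core of the element bound by interferon-activated factors. The search was for GAAANNGAAA, with N any base, on both strands (TTTCNNTTTC on the other) in the 250 bases before the start of each gene in RefSeq promoters of GRCm38.p6. Capitals mark the matches, and each stretch is written 5′ to 3′ on the strand of its gene.
Isg15: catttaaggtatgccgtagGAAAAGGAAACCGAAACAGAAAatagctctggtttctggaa
Ifit1: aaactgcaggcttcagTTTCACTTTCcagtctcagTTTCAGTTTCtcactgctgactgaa
Ifit3: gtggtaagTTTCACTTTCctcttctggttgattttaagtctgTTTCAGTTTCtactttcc
Bst2: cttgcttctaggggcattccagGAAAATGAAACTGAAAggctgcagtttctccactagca
B2m: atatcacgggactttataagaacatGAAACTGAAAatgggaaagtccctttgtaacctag

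The Isg15 stretch (chr4:156200856-156200915, minus strand) held 3 matches that overlap one another, which began 78, 72 and 66 bases before the start. Ifit1 (chr19:34640769-34640828, plus strand) and Ifit3 (chr19:34583365-34583424, plus strand) each held 2 separate matches on the other strand. Their first match reads TTTCACTTTC and their second TTTCAGTTTC in both genes. Bst2 (chr8:71537565-71537624, minus strand) held 2 overlapping matches, and B2m (chr2:122147523-122147582, plus strand) held 1. Promoters of Irf7, H2-K1 and H2-D1 held none of these letters in the window, and 8 of the 9 members had a promoter in the table. Matches were found in 5 of 8 members (62.5%) and in 936 of 27025 genes with a promoter (3.46%). Among other gene families, 11 of 14 guanylate-binding proteins, immunity-related GTPases and interferon gamma targets held a match and 7 of 25 other interferon-stimulated genes did. A match is a run of letters and not a bound site.

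In GRCm38 the genes lie apart except for pairs of relatives. Ifit3 (chr19:34583531-34588731) and Ifit1 (chr19:34640871-34650009) lie in one cluster with Ifit3b (chr19:34607970-34613401), a close copy of Ifit3, and H2-K1 (chr17:33996017-34000347) and H2-D1 (chr17:35262730-35267499) lie in the MHC. Reads of such relatives can be split between them or lost in counting, so their levels are less certain than those of B2m (chr2:122147686-122153083), Isg15 (chr4:156199424-156200818), Irf7 (chr7:141262706-141266481) and Bst2 (chr8:71534255-71537456). Ifi27 (chr12:103434211-103440239) also has a relative, Ifi27l2a, and is not set among the more certain genes.

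Levels are CPM of the section or region. The assay counts 1 UMI per captured 3′ end, so that CPM are not divided by gene length, and the order of genes below also carries how well each 3′ end was captured. MHC class I genes stood far above the interferon-stimulated genes. Over whole sections B2m was highest with 2188 ± 185 CPM (SD, n = 4), H2-K1 followed with 1422 ± 145 CPM and H2-D1 with 1197 ± 164 CPM, and this order was the same in each of the 4 sections. Ifi27, a small hydrophobic protein of intracellular membranes, came next at 300.2 ± 219 CPM. Bst2, the antiviral tether that holds budding virions at the cell surface, followed at 119 ± 13.0 CPM.

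Ifit3 and Ifit1, whose proteins bind together and block foreign RNA, reached 44.3 ± 16.0 and 21.5 ± 6.93 CPM (SD, n = 4) over whole sections. Irf7, the transcription factor that amplifies type I interferon production, stood at 20.9 ± 2.85 CPM and Isg15, a ubiquitin-like modifier, at 17.0 ± 5.60 CPM. Neighbours down to Ifit1 kept their order in all 4 sections. Ifit1 and Irf7 did not differ beyond their spread, Ifit1 being above Irf7 in 2 of 4 sections, and Irf7 was above Isg15 in 3 of 4. Between sections, Ifi27 varied most, 4.81-fold from the lowest to the highest, and B2m least, 1.19-fold.

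Of 10 interferon genes measured, 9 had 0 UMIs in every section, which allows at most 0.0874 to 0.431 CPM in a section (3 counts, covering counting error only). The exception was Ifng, the interferon of T and NK cells, with 1 (male) and 5 (female) UMIs in NV and 3 (male) and 7 (female) UMIs in V. Transcripts of the interferons themselves were thus not detectable or nearly so at this depth.

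**Figure D1:**
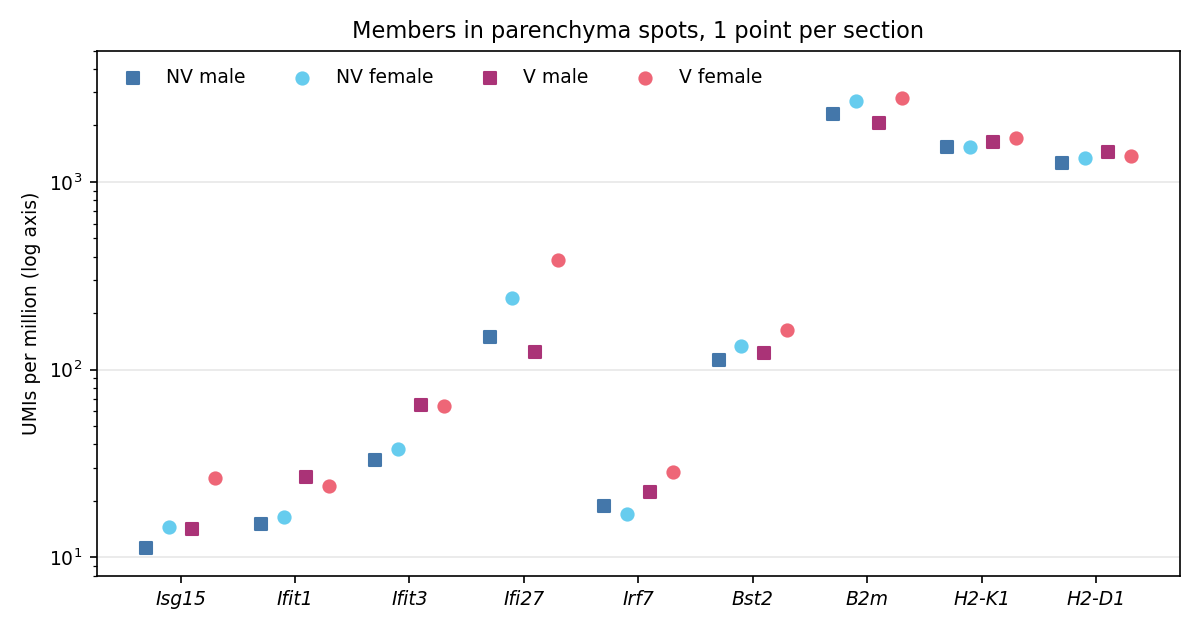
Levels of the 9 members in parenchyma spots, as CPM on a log axis, with 1 point per section (squares males, circles females, blue NV, red V). Ifit3, Ifit1 and Irf7 are higher in both V sections than in both NV sections, Ifi27 spreads widest, and the 3 MHC class I genes lie close together at the top.

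Within the parenchyma, Ifit3, Ifit1 and Irf7 were higher in both V sections than in both NV sections, whereas MHC class I genes differed little. Ifit3 measured 33.0 (male) and 37.9 (female) CPM in NV and 65.2 (male) and 63.8 (female) CPM in V parenchyma. The V sections were close to each other and well above the NV sections, with 64.5 ± 1.02 against 35.5 ± 3.50 CPM (SD, n = 2 each). Its log2 fold change was 0.88 (SE 0.15), or 1.84-fold.

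Ifit1 measured 15.1 (male) and 16.5 (female) CPM in NV and 26.9 (male) and 23.9 (female) CPM in V. Both V sections were again above both NV sections, with a log2 fold change of 0.70 (SE 0.17). Irf7 stood at 18.9 (male) and 17.0 (female) CPM in NV and 22.4 (male) and 28.5 (female) CPM in V, a log2 fold change of 0.52 (SE 0.21). Isg15 overlapped between the groups: it was 11.2 (male) and 14.6 (female) CPM in NV and 14.2 (male) and 26.5 (female) CPM in V. Its log2 fold change of 0.69 (SE 0.37) rested on the V female, and without that section it was 0.15.

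Bst2 ranged from 112 to 134 CPM in NV and from 122 to 162 CPM in V parenchyma, with overlapping groups and a log2 fold change of 0.22 (SE 0.22). Ifi27 measured 149 (male) and 240.2 (female) CPM in NV and 125 (male) and 385 (female) CPM in V. The V sections lay on either side of the NV sections, so that its log2 fold change of 0.42 (SE 0.57) became -0.64 without the V female and 1.03 without the V male. Ifi27 was in this respect unlike Ifit3, whose value stayed between 0.80 and 0.95 whichever section was left out.

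Among the MHC class I genes, H2-K1 was 1545 (male) and 1533 (female) CPM in NV and 1636 (male) and 1722 (female) CPM in V. H2-D1 was 1267 and 1338 CPM in NV and 1437 and 1374 CPM in V, again male first. Both had non-overlapping groups but small differences, with log2 fold changes of 0.14 (SE 0.16) and 0.12 (SE 0.16). B2m, at 2305 and 2705 CPM in NV and 2050.5 and 2808 CPM in V, overlapped and had a log2 fold change of -0.03 (SE 0.22).

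No member passed the test in the parenchyma. A gene was called where edgeR's quasi-likelihood test gave an adjusted p (Benjamini-Hochberg) under 0.05 and the log2 fold change exceeded 0.25 either way. This called 0 of 9 members and 0 of 14348 genes (0%), and the edgeR adjusted p of each member was 0.999. An unadjusted edgeR p under 0.05 was found for 380 genes, of which Ifit3 and Ifit1 were members, and DESeq2's Wald test called 10 genes and 0 members. The V sections lay above both NV sections for 5 of 9 members (Ifit1, Ifit3, Irf7, H2-K1 and H2-D1) and for 14.4% of all genes tested, and below both for 0 of 9 members and 17.1% of all genes.

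The calls depended on which V section was in the fit. Without the V male, 2.02% of genes passed in edgeR, among them Ifit3 (adjusted p = 0.00223), Isg15 (0.00528) and Ifi27 (0.000529). Without the V female, 10.5% passed in edgeR, among them Ifit3 (adjusted p = 0.000313), Ifit1 (0.0272) and, in the opposite direction, Ifi27 (0.0165). Ifit3 was the only member called with the same sign in both fits, in which the lone V section is assumed to vary like the NV pair.

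**Figure D2:**
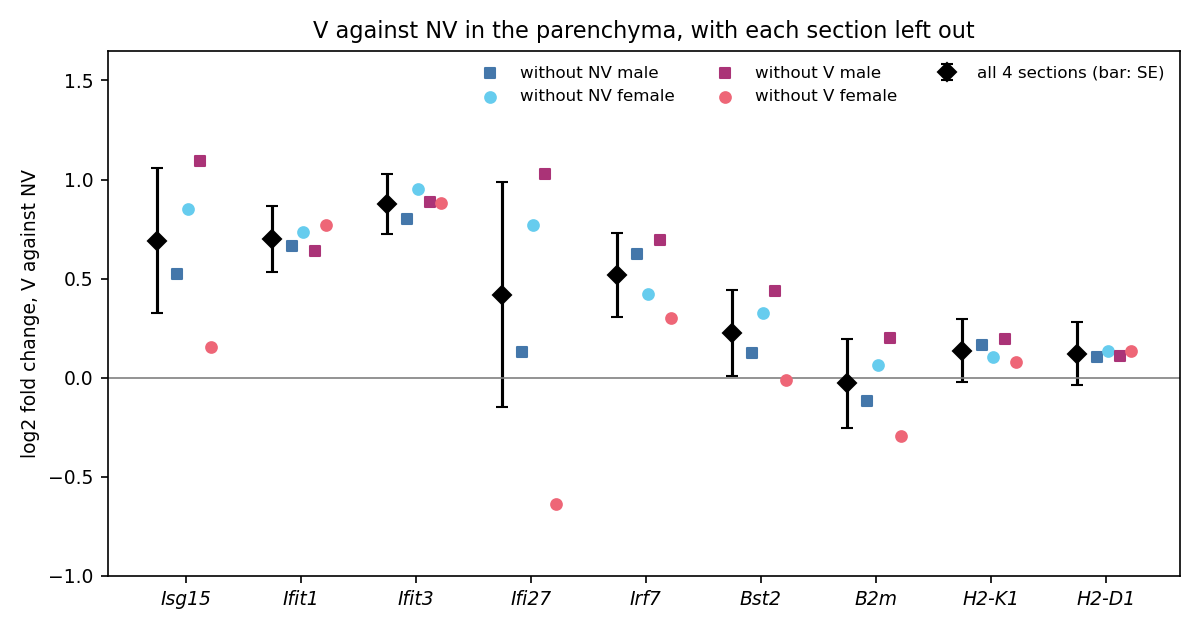
Log2 fold change of each member in the parenchyma, V against NV, from edgeR. Black diamonds with bars are the fit of all 4 sections with its SE, and coloured points are fits without 1 section. Ifit3 and Ifit1 stay between 0.64 and 0.95 throughout, whereas Ifi27 crosses 0 and Isg15 is at 0.15 without the V female.

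Ifit3b, the copy of Ifit3, was at 15.8 (male) and 11.1 (female) CPM in NV and 27.6 (male) and 22.2 (female) CPM in V parenchyma, with a log2 fold change of 0.87 (SE 0.25). Both copies thus had the same order of groups. In bulk sums over spots, fewer cells of a type and less RNA per cell cannot be told apart. Alveolar type 1 markers summed to 1456 (male) and 1443 (female) CPM in NV and 2238 (male) and 1658 (female) CPM in V parenchyma. All 5 of these markers had positive log2 fold changes, with a median of 0.49, and none was at 0.

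Since Ifit3 was higher in spots rich in those markers, as described further on, parenchyma spots were divided at the median share of alveolar type 1 markers over all parenchyma spots. In the spots under that median, Ifit3 measured 31.7 (male) and 31.1 (female) CPM in NV and 59.4 (male) and 58.1 (female) CPM in V. In the spots over it, Ifit3 measured 36.3 and 59.6 CPM in NV and 67.2 and 72.2 CPM in V, male first. Both V sections lay above both NV sections on either side of the median, although the NV female spots over it, with 54 UMIs of Ifit3, came close. Divided by capillary endothelium markers in the same way, Ifit3 was between 32.6 and 38.2 CPM in the NV and between 58.4 and 68.0 CPM in the V sections on both sides. The division did not make the alveolar type 1 markers equal between the groups. Under their median they summed to 1174 and 1202 CPM in NV and 1412 and 1275 CPM in V, male first. Over it they summed to 2160 and 2204 CPM in NV and 2512 and 2220 CPM in V. In the spots over it, 0 members had an unadjusted edgeR p under 0.05. Ifit1 and Irf7 did not keep V above NV in every part. Ifit1 over the alveolar type 1 median measured 12.1 and 28.7 CPM in NV and 26.8 and 24.8 CPM in V, male first. The NV female value rested on 26 UMIs. Irf7 was level in the males there, at 21.3 CPM in each. Over the capillary endothelium median, Irf7 was 24.6 CPM in the NV male and slightly lower in the V male. In the remaining parts, both V sections lay above both NV sections for both genes. Both divisions were chosen after seeing the data, and the part of these markers in the levels of Ifit3, Ifit1 and Irf7 was not tested.

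Other cell type markers also differed between the groups in the parenchyma, the male being given first. Alveolar macrophage markers were higher in V (667 and 730.2 against 337 and 556 CPM, 4 of 6 genes positive). Alveolar type 2 markers were lower in V (3792 and 3615 against 4456 and 4479 CPM, 1 of 6 genes positive), and so were cardiac muscle markers (18.2 and 1768 against 2938 and 2099 CPM, 1 of 6 genes positive). B and plasma cell markers were lower in V (168 and 239 against 372 and 336 CPM, 0 of 5 genes positive), as were monocyte and interstitial macrophage markers (228 and 367 against 430.4 and 477 CPM, 0 of 6 genes positive). In these 5 lists no gene was at 0 in any section. The sum of the plasmacytoid dendritic cell list, carried by a muscle gene as described further on, was also lower in V (45.9 and 298 against 585 and 476 CPM). Of the genes in that list, however, 3 of 4 had positive log2 fold changes, with a median of 0.71. Capillary endothelium markers overlapped (4093 and 3267 against 3191 and 3443 CPM). The part of these cell types in the levels of the members was not tested.

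Wider interferon families were examined with lists chosen in the knowledge of earlier results of these data. In none of them was any gene called in the parenchyma. Of 20 guanylate-binding proteins, immunity-related GTPases and interferon gamma targets, 18 had positive log2 fold changes with a median of 0.46, beside 51.3% positive and a median of 0.01 over all 14348 genes. The 4 with the largest values were Tgtp1 (0.87, SE 0.55), Cxcl9 (0.87, SE 1.27), Cxcl10 (0.76, SE 0.78) and Gbp9 (0.76, SE 0.21), of which the GTPases Tgtp1 and Gbp9 restrict intracellular pathogens and the chemokines Cxcl9 and Cxcl10 attract T cells. The summed level of the list nonetheless overlapped between the groups, with V over NV at 0.853 in the males and 1.70 in the females.

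Other interferon-stimulated genes were spread on both sides of 0, 25 of 34 positive with a median of 0.16. The 4 furthest from 0 were Ifit3b, Ifi204 (-0.66, SE 0.50), a DNA sensor, Oas3 (-0.61, SE 0.66), which activates RNA decay, and Ifitm1 (0.56, SE 0.18), which blocks virus entry. Nucleic acid sensors and adaptors, upstream of interferon, had 2 of 8 positive and a median of -0.08, led by Cgas (-0.50, SE 0.49), Tlr3 (-0.31, SE 0.21), Myd88 (-0.29, SE 0.15) and Mavs (-0.13, SE 0.28).

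Interferon receptors and signalling genes were even, 6 of 12 positive, with the largest values for Irf3 (0.53, SE 0.15), Tyk2 (-0.50, SE 0.17) and Irf9 (-0.29, SE 0.14). Genes that supply and load class I peptides had 10 of 14 positive with a median of 0.12, led by the immunoproteasome subunits Psmb10 (0.32, SE 0.23) and Psmb8 (0.29, SE 0.24), the transactivator Nlrc5 (0.24, SE 0.27) and the chaperone Canx (-0.22, SE 0.19). Other class I heavy chains had 8 of 12 positive with a median of 0.08, and the largest values belonged to Cd1d1 (-0.45, SE 0.49), H2-Q4 (0.42, SE 0.16), H2-M3 (0.42, SE 0.21) and H2-Q6 (0.40, SE 0.36). The H2-Q genes are close relatives whose reads are not easily separated.

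Over whole sections, upper airway spots included, Ifit3 again did not overlap between the groups and Ifit1 did. Ifit3 was 27.7 (male) and 37.7 (female) CPM in NV and 65.2 (male) and 46.8 (female) CPM in V, with a log2 fold change of 0.74 (SE 0.23). Ifit1, at 12.6 (male) and 27.0 (female) CPM in NV and 26.9 (male) and 19.4 (female) CPM in V, overlapped, and its log2 fold change was 0.19 (SE 0.42). Isg15 overlapped in the same way, from 10.4 to 22.4 CPM in NV and from 14.2 to 20.7 CPM in V. In both genes the NV female was the highest section, for Ifit1 only by 27.0 against 26.9 CPM in the V male. Without 1 spot described further on, Ifit1 in the NV female was 24.3 CPM, below the V male.

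Ifi27 was 149.9 (male) and 327 (female) CPM in NV and 125 (male) and 599.6 (female) CPM in V, with a log2 fold change of 0.65 (SE 0.93). H2-K1 was 1330.2 (male) and 1329 (female) CPM in NV and 1636 (male) and 1393 (female) CPM in V, a log2 fold change of 0.16 (SE 0.25). Log2 fold changes of the remaining members were 0.23 for Irf7, 0.10 for Bst2, 0.11 for H2-D1 and -0.08 for B2m, with SEs from 0.22 to 0.30. With edgeR's quasi-likelihood test 0 of 9 members and 0 of 14570 genes (0%) were called, 248 genes had an unadjusted p under 0.05, and DESeq2's Wald test called 8 genes and 0 members. Both V sections were above both NV sections for Ifit3, Irf7 and H2-K1, 3 of 9 members beside 12.6% of all genes, and for Irf7 this did not hold with TMM scaling.

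Between regions of the same section, the heavy chains H2-K1 and H2-D1 were higher in the parenchyma and Ifi27 was higher in the upper airway. H2-K1 measured 617 CPM in upper airway and 1545 CPM in parenchyma spots of the NV male, 1089 and 1533 CPM in those of the NV female, and 999.2 and 1722 CPM in those of the V female. H2-D1 rose likewise from 597 to 1267 CPM, from 953 to 1338 CPM and from 722 to 1374 CPM in the same sections. Every section showed more of both in the parenchyma, with log2 fold changes of 0.44 (SE 0.16, adjusted p = 0.0466) and 0.41 (SE 0.14, adjusted p = 0.0392) in edgeR with the mouse as a block. B2m, at 1155, 2110 and 1546 CPM in the upper airway and 2305, 2705 and 2808 CPM in the parenchyma, had a log2 fold change of 0.31 (SE 0.15, adjusted p = 0.125) and was not called. The calls of the heavy chains were fragile. Without the NV male, H2-K1 was at 0.26 (edgeR adjusted p = 0.221) and H2-D1 at 0.33 (0.121), and without the NV female their adjusted p were 0.0572 and 0.0544, so that neither was called in either fit. H2-D1 also lost its call without the V female (edgeR adjusted p = 0.0559), and H2-K1 with DESeq2 size factors in edgeR (adjusted p = 0.0549).

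Ifi27 went the other way, with 152 CPM in upper airway and 149 CPM in parenchyma spots of the NV male, 429 and 240.2 CPM in those of the NV female, and 856 and 385 CPM in those of the V female. The upper airway was well above the parenchyma in both females and level with it in the male, and the log2 fold change was -1.12 (SE 0.18, adjusted p = 0.000785). It was called whichever of the 3 sections was left out. These 3 of 9 members were called where 41.7% of all 14039 genes tested were, so that the share of members was not above the background. In CPM, 5 of 9 members (Ifit3, Bst2, B2m, H2-K1 and H2-D1) were higher in the parenchyma in all 3 sections, beside 61.2% of all genes. Ifi27 alone was lower there in all 3, beside 16.9% of all genes, though in the NV male only by 149 against 152 CPM.

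The other antiviral members followed no common direction. Ifit3 was higher in the parenchyma of the NV male (33.0 against 10.1 CPM) and the V female (63.8 against 26.5 CPM) and about equal in the NV female (37.9 against 37.3 CPM), with a log2 fold change of 0.53 (SE 0.24, adjusted p = 0.106). In the upper airway Ifit1 was lower in the NV male (4.14 against 15.1 CPM) and the V female (14.0 against 23.9 CPM), but in the NV female it was higher there (39.5 against 16.5 CPM). Isg15 and Irf7 were higher in the upper airway in the NV female alone, at 31.7 against 14.6 CPM and 26.7 against 17.0 CPM. Bst2 had a log2 fold change of 0.31 (SE 0.17), and none of these 5 members was called.

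One spot of the NV female upper airway held 20 of the 188 Ifit1 UMIs of its section, with 9 of Ifit3, 4 of Isg15, 4 of Irf7 and 9 each of the antiviral genes Rsad2 and Oasl2 among 47494 UMIs. Without that spot, Ifit1 in that region was still 33.7 CPM and Isg15 30.9 CPM, so that the NV female kept the highest upper airway level. Scaling mattered for these genes. Scaled to total UMIs alone, the median log2 fold change of all genes moved from 0.02 to 0.44, 6 of 9 members were called, all higher in the parenchyma except Ifi27, and Isg15, Ifit1 and Irf7 turned positive without being called. Where the mouse was not in the fit, 0 members were called.

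**Figure D3:**
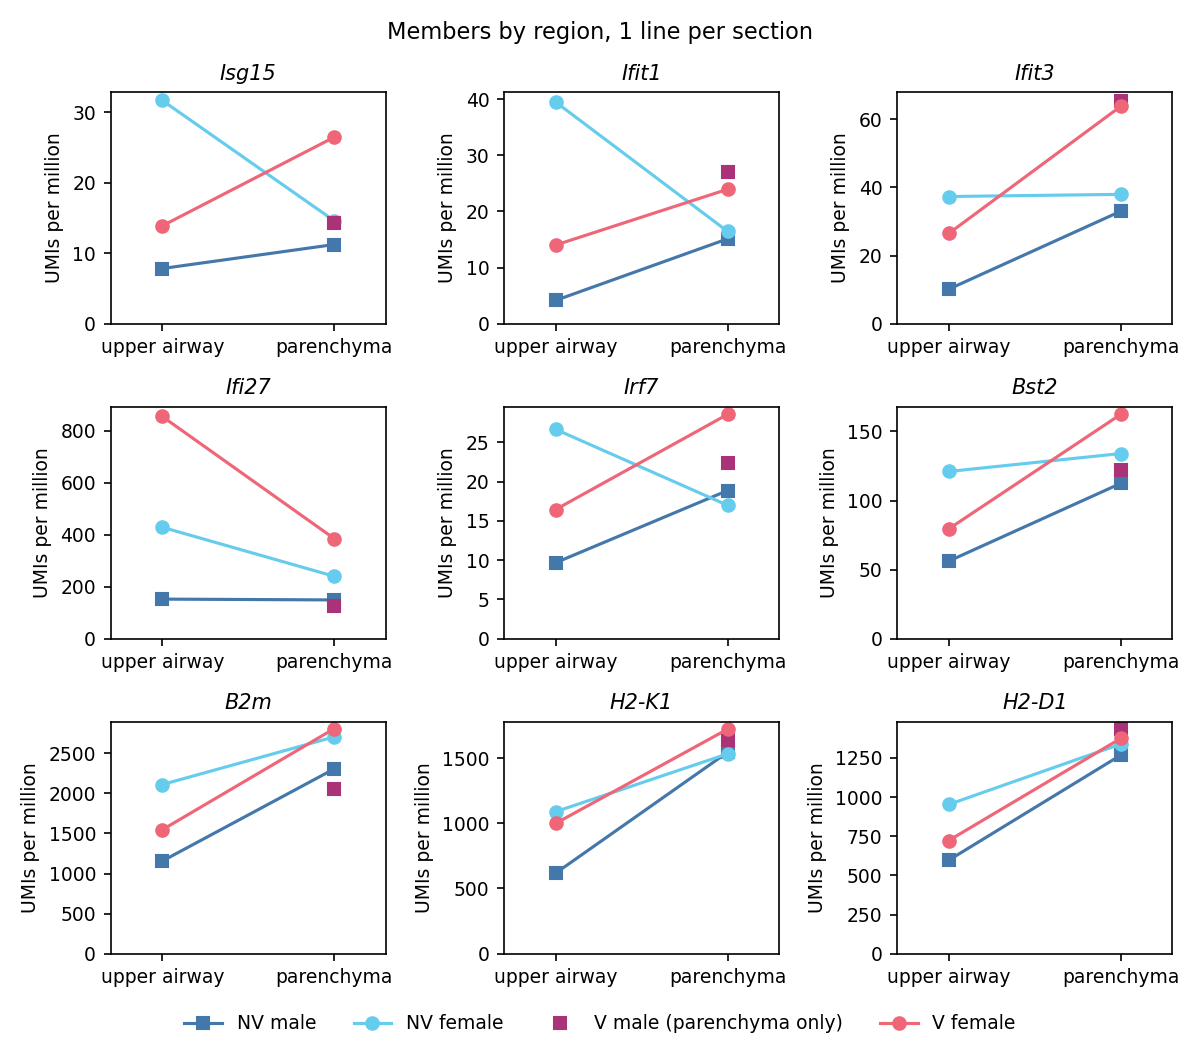
Levels of each member in the upper airway and the parenchyma, as CPM on axes that start at 0, with 1 line per section and 1 point for the V male, which has parenchyma only. In CPM the 3 MHC class I genes are higher in the parenchyma in all 3 sections with both regions (with TMM scaling, H2-K1 and H2-D1 are), Ifi27 is lower there in both females, and Isg15, Ifit1 and Irf7 are lower there in the NV female.

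Calls among other genes of the class I pathway stand beside 41.7% of all genes called, 2593 higher and 3262 lower in the parenchyma, and their frequency was not tested against it. Of 14 genes of peptide supply and loading, 6 rose in the parenchyma and 1 fell (median log2 fold change 0.29, beside 0.02 over all genes). The largest values among them were those of the peptide transporter Tap1 (0.67, SE 0.17), the editor Tapbpl (0.54, SE 0.17), the immunoproteasome subunit Psmb9 (0.53, SE 0.14) and Nlrc5 (0.52, SE 0.15), all called. Of 11 other class I heavy chains, 5 rose and 3 fell. H2-Q6 (1.28, SE 0.15) and H2-Q7 (0.98, SE 0.14) were higher in the parenchyma, and H2-Q10 (-2.04, SE 0.21) and the lipid-presenting Cd1d1 (-1.49, SE 0.21) in the upper airway.

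The interferon families likewise stand beside 41.7% of all genes called. Of their members, 6 of 20 guanylate-binding proteins, immunity-related GTPases and interferon gamma targets rose in the parenchyma, led by Ifi47 (1.07, SE 0.16) and Gbp4 (0.91, SE 0.12), and Cxcl9 fell (-2.60, SE 0.39). Of 34 other interferon-stimulated genes, 5 rose and 2 fell, the latter being Ifi27l2a (-2.09, SE 0.14), a relative of Ifi27, and Ifi204 (-1.12, SE 0.22). Interferon receptors and signalling genes gave 3 of 12 higher, the receptor chains Ifnlr1 (0.83, SE 0.23), Ifngr1 (0.54, SE 0.11) and Ifnar1 (0.43, SE 0.13), and none lower. Of 8 nucleic acid sensors and adaptors, 4 were higher, among them Cgas (1.37, SE 0.40), Tlr3 (0.45, SE 0.14) and Myd88 (0.43, SE 0.13), and Mavs was lower (-0.62, SE 0.11).

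Spots were compared after each was thinned to 3000 UMIs, which left out 52 to 224 shallower spots per section. At that depth MHC class I transcripts were found almost everywhere: B2m in 98.8 to 99.8% of spots and H2-K1 and H2-D1 in 94.8 to 99.3%. Ifit3 was found in 8.62% (95% exact binomial interval 6.69 to 10.9) of NV male, 9.98% (7.28 to 13.2) of NV female, 17.0% (15.1 to 19.1) of V male and 15.3% (13.6 to 17.0) of V female spots. Neither V interval reached an NV interval, but these intervals cover counting error only and not the difference between mice.

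Ifi27 was found in 37.8% of NV male, 52.5% of NV female, 30.7% of V male and 71.5% of V female spots, the order of its CPM. Bst2 was found in 24.5 to 33.1%, Irf7 in 4.92 to 6.94%, Ifit1 in 4.10 to 7.70% and Isg15 in 3.83 to 6.72% of spots. For Isg15, Ifit1 and Irf7 at most 4 UMIs were seen in any thinned spot. Which members had larger shares in both V than in both NV sections depended on the depth. Ifit3 did at 1000, 3000 and 5000 UMIs but not in spots that were not thinned, H2-K1 did at each of these, and Irf7 did at 3000 UMIs alone.

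Where cell type markers were concentrated, the members split into patterns that were not shared. Spots in the top 10% for a marker list were set against the other spots of the same section, over spots with at least 1000 UMIs, as a ratio of CPM and with no test. Rich spots were mostly parenchyma (91.3 to 100% per section) for capillary endothelium, alveolar type 1, T and NK cell, neutrophil and alveolar macrophage markers. In the 3 sections with upper airway, the other spots included it, and 0 to 16.9% of cardiac muscle-rich spots were parenchyma. The part of the region in the ratios was not tested. The sum of the 3 MHC class I members was lower in spots rich in cardiac muscle markers in all 4 sections, with a median ratio of 0.472 (0.368 to 0.976). The ratio nearest to 1 was that of the V male, whose richest spots held 134 CPM of these markers against 14285 to 23092 CPM in the others. Smooth muscle-rich spots gave 0.629 (0.489 to 0.995). MHC class I was higher in all 4 sections in spots rich in capillary endothelium (median 1.26), T and NK cell (1.204), neutrophil (1.19), alveolar macrophage (1.19), alveolar type 1 (1.12) and B and plasma cell markers (1.09). For each of these lists the lowest ratio of a section was between 1.01 and 1.05.

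Ifi27 stood out in adipocyte-rich spots. It measured 282 CPM there and 143 CPM in other spots of the NV male, 759 and 229.8 CPM in those of the NV female, 133 and 124 CPM in those of the V male and 1243 and 410.4 CPM in those of the V female, with a median ratio of 2.50. The V male, with a ratio of 1.07, had only 178 CPM of adipocyte markers in its richest spots, where the other sections had 2128 to 5455 CPM. Ifi27 was below the other spots in 3 of 4 sections for capillary endothelium markers (median 0.725). Adipocyte markers over the whole section were 227 (male) and 1511 (female) CPM in NV and 24.2 (male) and 1092 (female) CPM in V, the order of the sections in Ifi27 apart from the 2 females. Their part in the level of Ifi27 was not tested.

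Ifit3 was highest in alveolar type 1-rich spots, with 42.4 CPM there and 26.2 CPM in other spots of the NV male, 60.5 and 35.8 CPM in those of the NV female, 78.1 and 64.1 CPM in those of the V male and 71.4 and 45.5 CPM in those of the V female. The ratio was above 1 in all 4 sections, with a median of 1.59, although only 32 to 125 UMIs lay behind each rich value. Ifit1 (median 1.07) and Isg15 (0.942) showed no such ratio there. Irf7 was above the other spots in all 4 sections for club cell markers (median 1.46) and for B and plasma cell markers (1.31), and Isg15 for monocyte and interstitial macrophage markers (1.15, lowest 1.01). These were picked from all pairs of a member and a marker list. How many pairs would be above 1 in all 4 sections without any pattern was not tested. The V male had only 989 CPM of club cell markers in its richest spots, where the other sections had 25321 to 69046.5 CPM. Irf7 also had only 149 to 790 UMIs per section, of which the rich spots held a part. Bst2 was above the other spots in all 4 sections for capillary endothelium (1.28), T and NK cell (1.19), alveolar macrophage (1.18), neutrophil (1.11) and alveolar type 1 markers (1.09).

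Plasmacytoid dendritic cells, the main producers of type I interferon, could not be followed by their markers. Their list was carried by Cox6a2, which is also a gene of striated muscle, with 422 to 18866 UMIs per section beside 10 to 94 UMIs of Siglech, 13 to 48 of Ccr9 and 3 to 31 of Klk1. In spots rich in this list MHC class I had a median ratio of 0.459, near that in cardiac muscle-rich spots. Spots rich in alveolar type 2, ciliated cell, fibroblast, mesothelium or red blood cell markers had median ratios between 0.731 and 1.21 for every member. Those rich in the club cell list had ratios of 0.743 to 1.12 for members other than Irf7.

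**Figure D4:**
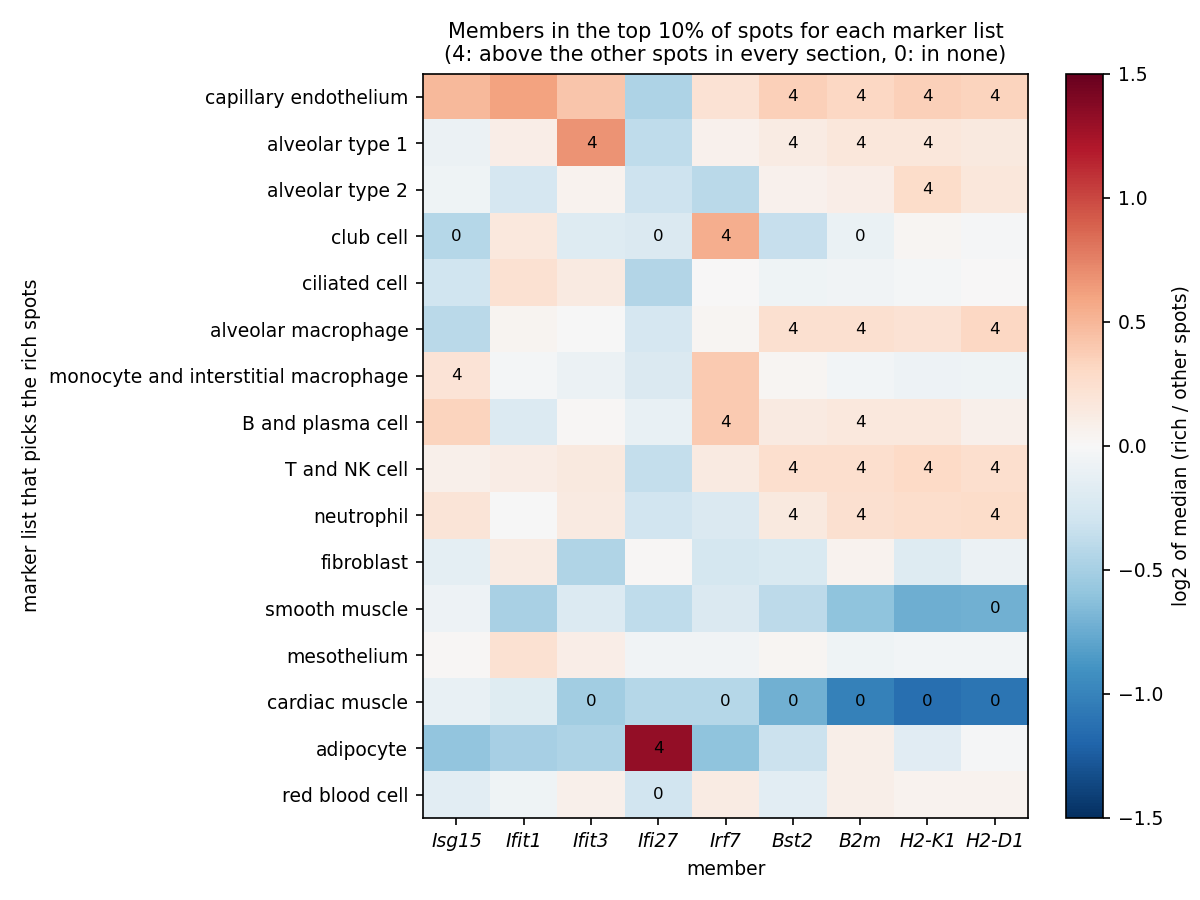
Median over 4 sections of the ratio of each member between the top 10% of spots for a marker list and the other spots, on a log2 colour scale (red higher, blue lower in rich spots). A 4 marks ratios above 1 in every section and a 0 ratios above 1 in none. Among the lists plotted, MHC class I and Bst2 have their lowest ratios in cardiac muscle-rich spots, Ifi27 has its highest in adipocyte-rich spots and Ifit3 in alveolar type 1-rich spots.

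Agreement between members over spots was weak, and its difference between the kinds cannot be told apart from their difference in counts. MHC class I members had means of 3.47 to 7.98 UMIs per thinned spot and interferon-stimulated members 0.0397 to 1.40. Pearson correlations of log counts over thinned spots are given as descriptions, since the spots of a section share a library. Over 421 to 1829 spots per section, the 3 pairs of MHC class I genes had mean r of 0.26 (B2m with H2-K1), 0.23 (B2m with H2-D1) and 0.20 (H2-K1 with H2-D1). In parenchyma spots alone these were 0.04, 0.06 and 0.03. In the V male, which is nearly all parenchyma, B2m with H2-K1 had an r of 0.04 over all spots.

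The 15 pairs of interferon-stimulated members had mean r between -0.01 and 0.03, which in counts this sparse is no finding. The 18 pairs between the kinds had mean r between -0.01 and 0.08, the highest of them Bst2 with B2m. Counts of Isg15, Ifit1, Ifit3 and Irf7 varied between thinned spots about as much as their mean, with variance over mean from 0.947 to 1.27. For B2m this ratio ran from 1.21 in the V male to 1.71 in the NV male. At equal relative spread the ratio rises with the mean, which was 6.10 to 7.98 UMIs for B2m. It therefore does not tell whether B2m varied more between spots than those genes. Spots with at least 3 UMIs of Isg15, Ifit1, Ifit3 and Irf7 together were few, 5 of 731 (male) and 5 of 421 (female) in NV and 13 of 1363 (male) and 28 of 1829 (female) in V.

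**Figure D5:**
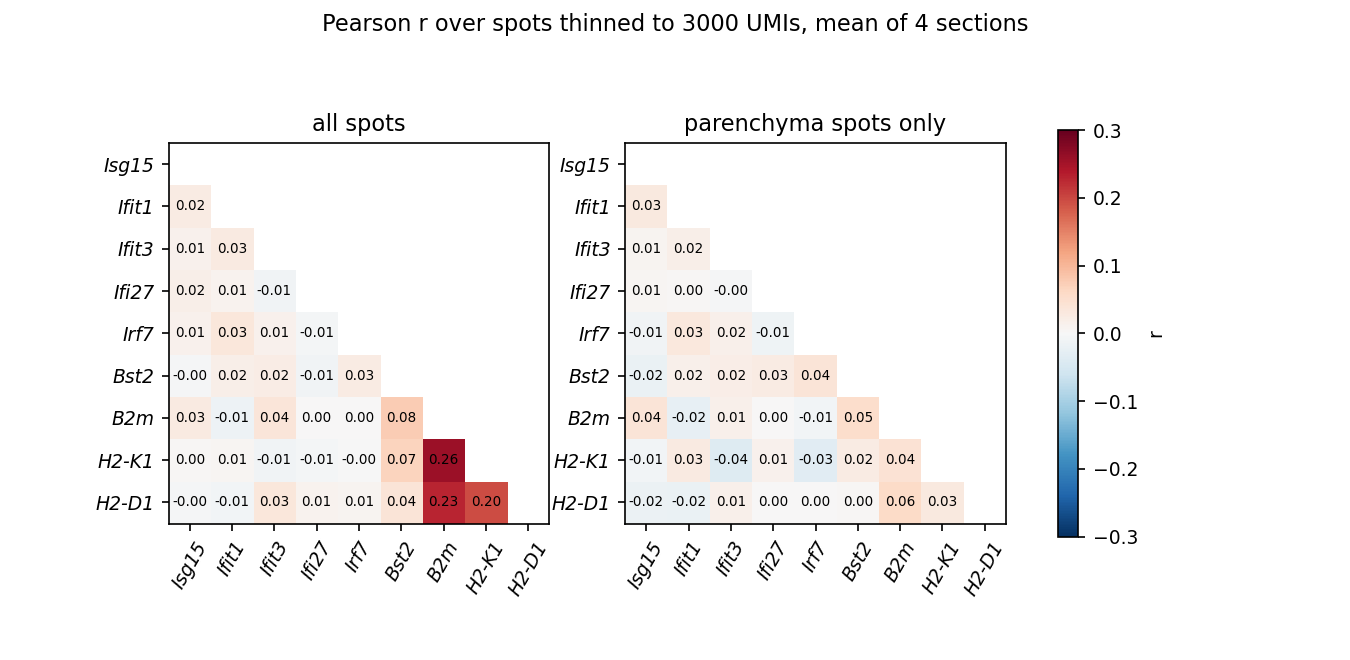
Pearson correlation between members over spots thinned to 3000 UMIs, as the mean of 4 sections, for all spots and for parenchyma spots only. Colours run from -0.3 (blue) to 0.3 (red). The MHC class I pairs reach 0.20 to 0.26 over all spots and 0.03 to 0.06 within the parenchyma, and pairs of interferon-stimulated members stay near 0 in both.

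Genes whose pattern over spots was most like that of the summed MHC class I members were Tmsb4x (mean r 0.38), Lyz2 (0.35), Actb (0.35), Sftpc (0.34) and Epas1 (0.33), among 2145 genes with at least 100 UMIs in every section and a median of 0.05. Tmsb4x and Actb encode parts of the actin cytoskeleton, Lyz2 lysozyme of myeloid and alveolar type 2 cells, Sftpc a surfactant protein and Epas1 a hypoxia-inducible factor of endothelium. In the V male, the section without upper airway, these r ranged from -0.14 for Sftpc to 0.10 for Tmsb4x. For the summed interferon-stimulated members, of which Ifi27 supplied most UMIs, the genes most alike were Fabp4 (0.13), Fasn (0.11), Acly (0.10), Scd1 (0.10) and Ifi27l2a (0.10), around a median close to 0 over the same genes. Fabp4, Fasn, Acly and Scd1 are genes of fatty acid handling and synthesis in adipocytes. Their r lay between 0.20 and 0.25 in the NV female and between 0.13 and 0.23 in the V female, and was at most 0.08 in either male.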

How the data were processed

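Polyadenylated RNA was captured on Visium spots of 4 lung sections, 1 per mouse, from 2 V and 2 NV mice. Per the methods, the authors aligned the reads with SpaceRanger 1.2.2 to the mm10-2020-A reference and deposited filtered tables of raw UMI counts per gene and spot, which were used here without change. UMI counts were summed per mouse over all spots or over parenchyma spots, since spots of a section are not replicates. Sums were fitted under R 4.3.3 by edgeR 4.0.16 (quasi-likelihood test after filterByExpr and TMM scaling, Benjamini-Hochberg adjustment over all genes tested), with 2 mice per group for V against NV and with the mouse as a block for parenchyma against upper airway. Regions needed at least 50 spots. DESeq2 1.42.0 was an alternative, as were other scalings, filters, marker thresholds, depths, spot sets and leaving out each mouse. The totals of 6957392 to 34308556 UMIs per section limit the precision of the low members. Spot values were computed in Python 3.11.15 with numpy 2.4.6 and scipy 1.17.1 after seeded thinning, and the steps were tested on simulated data. The members, gene lists and marker lists were chosen with earlier results of these data known. Named genes were the 9 members, the 4 genes of each list with the largest change in size, and the 5 genes most alike over spots, and Ifit3b, the genes of the richest spot and the plasmacytoid markers were named after their values were seen. Mx1, Mx2, Sting1 and H2-T10 were not analysed here, and 1 gene that this rule names is not reported here. Groups come from the labels, and which sections shared a slide is not given in the sources used here. Each mouse gave 1 section, so that p-values for V against NV measure the spread between mice, sexes and placements of the section together. Those for parenchyma against upper airway, with the mouse as a block, measure how the difference between regions varied over the sections that held both.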

Additional observations from a re-analysis of the deposited data

Results flagged for a closer look

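In some members V was above NV in 1 sex and below it in the other. These differences between the sexes were not tested, since there was 1 mouse of each sex per group, and mouse and sex cannot be told apart. Over whole sections, Isg15 had a V over NV ratio of CPM of 1.36 in the males and 0.924 in the females. The ratio for Ifit1 was 2.14 in the males and 0.718 in the females, the latter with a single NV spot that held 20 of the 188 Ifit1 UMIs. Ifi27 went the opposite way, at 0.832 in the males and 1.84 in the females. Bst2 had 1.23 in the males and 0.973 in the females, B2m 1.01 and 0.918, and H2-D1 1.29 and 0.927. In the parenchyma, Ifi27 had 0.836 in the males and 1.60 in the females and B2m 0.889 and 1.04, whereas Isg15, Ifit1, Bst2 and H2-D1 were above 1 in both sexes there.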

How the results depend on the processing

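For V against NV, 0 members were called under every alternative that kept all 4 sections. DESeq2's Wald test called 8 genes over whole sections and 10 in the parenchyma, and edgeR without a filter on low counts called 5 in the parenchyma. Replicate numbers are shared between the groups and also mark the sex, with only 2 pairs, and deviations of same-numbered sections correlated at 0.32 over whole sections and 0.054 in the parenchyma. A fit with the replicate number as a block called 0 genes in both. Leaving out 1 section at a time gave 0 to 811 genes over whole sections, 0 to 1483 genes and 0 to 3 members in the parenchyma, and 4244 to 5898 genes and 1 to 4 members between regions. With a lone section in a group, its spread is taken to be that of the other group.

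Leaving out 1 section turned the log2 fold change over whole sections of Isg15 (-0.37 to 0.75), Ifit1 (-0.27 to 0.85), Ifi27 (-1.08 to 1.40), Bst2 (-0.087 to 0.30), B2m (-0.27 to 0.071) and H2-D1 (-0.0043 to 0.20). In the parenchyma it turned Ifi27 (-0.64 to 1.03), Bst2 (-0.014 to 0.44) and B2m (-0.29 to 0.20), and between regions Isg15 (-0.95 to 0.40), Ifit1 (-0.72 to 0.62) and Irf7 (-0.43 to 0.42). B2m was 0.024 in parenchyma spots above the median share of alveolar type 1 markers, a setting added after seeing the data. Between regions, scaling to total UMIs called 9056 genes, 7030 higher and 2026 lower in the parenchyma, against 2593 and 3262 with TMM, and 6 members, and turned Isg15 (0.20), Ifit1 (0.25) and Irf7 (0.40). The region fit called 6 members without a filter on low counts (Irf7 0.032), 1 with a marker threshold of 25%, which left out the NV male, and 0 with no replicate block. Between regions, the log2 fold change of Ifit1 was 6.69e-05 in DESeq2, close to 0, against -0.17 in the main edgeR fit. The cause of these changes was not tested beyond what each alternative leaves out. The median r over spots of MHC class I pairs moved from 0.23 to 0.076 in spots thinned to 1000 UMIs and to 0.044 in parenchyma spots, and that of interferon-stimulated pairs from 0.014 to 0.0032 in spots thinned to 1000 UMIs.

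The low members rest on few UMIs, with at most 4 UMIs of Isg15 in any thinned spot, and 2 mice per group limit every comparison of V with NV.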
